A study of Homo sapiens with 12 samples.

Results

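SNAI2, VIM and FN1 were followed as 3 mesenchymal genes in LNCaP cells, an androgen-responsive epithelial line from a human prostate cancer metastasis. Their transcript levels were read from Affymetrix Human Gene 2.0 ST arrays, which report one intensity for each transcript cluster, a group of probes assigned to a transcript region. Where a gene had several clusters, the one brightest on average across the 12 arrays stood for it, which gave cluster 17077004 for SNAI2, cluster 16712272 for VIM and cluster 16908037 for FN1. These are 3 of 14812 genes named in the table and 3 of the 11105 genes that passed a filter on low values. That filter asked for intensities above the table's median of 22.31 in at least 2 arrays. All 3 members passed it. The genes were chosen by their measured levels, with an earlier result in view: they stood higher in full serum among vehicle-treated cells. That difference is therefore given only as a description, and the tests of serum rest on the taxane-treated arrays.

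The 12 arrays formed 6 groups of 2 replicates, all from LNCaP cells carrying the control plasmid MSCV-LMP. In full serum, cells received 1 nM cabazitaxel, 1 nM docetaxel or ethanol vehicle for 16 h. In charcoal dextran treated serum, from which most steroid hormone has been removed, cells received the same 3 treatments for the same time. Cabazitaxel and docetaxel are taxanes, drugs that stabilise microtubules, and cabazitaxel carries methoxy groups where docetaxel has hydroxyl groups. Whether the duplicates came from separate cultures is not stated in the labels. The p-values below therefore measure only the spread between these samples, which may be technical. A lower level in one of these bulk cultures can reflect fewer expressing cells or less RNA per cell, and these cannot be told apart.

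Epithelial-mesenchymal transition is the process in which epithelial cells loosen their junctions and take on a migratory, matrix-producing state. SNAI2, also known as SLUG, is a zinc-finger repressor that binds E-box motifs in epithelial promoters such as that of CDH1, the E-cadherin gene. VIM encodes vimentin, the intermediate filament protein of mesenchymal cells, and FN1 encodes fibronectin, a matrix glycoprotein that cells grip through integrins. LNCaP cells are known as an epithelial, luminal line that depends on the androgen receptor, and full serum supplies androgens that charcoal treatment removes.

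Several luminal markers were bright in every array, but not all of them. KLK3, which encodes prostate-specific antigen, ranged from 478 to 1470 intensity units, FOLH1 from 763 to 1420 and the luminal keratin gene KRT18 from 222 to 288. The other luminal markers were KLK2 (92 to 364), HOXB13 (86 to 120), KRT8 (42.7 to 64.4) and TARP (27.3 to 147). The lowest TARP values lay within the range of the fibroblast marker S100A4. Among basal, endothelial and macrophage markers CD68 was brightest, at 34.4 to 40.4, above the lowest TARP values. The fibroblast matrix genes DCN and LUM, with highest intensities of 19.0 and 21.8, stayed below the table's median in every array. The other 3 fibroblast markers named in the table were above it in every array, THY1 at 22.4 to 28.2, TAGLN at 23.2 to 28.8 and S100A4 at 22.7 to 30.1. The summed intensity of the 5 fibroblast marker genes named in the table, of 13 listed, lay between 110 and 117 in full serum and between 109 and 122 in charcoal serum. Intensities were on a linear scale above a floor near 17, so fold changes of dim genes are compressed.

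RefSeq promoter windows of FN1 and VIM are shown because both genes are standard readouts of mesenchymal state and the windows differ in composition. Sequence outside these windows was not searched, so the counts below do not describe the whole promoter of either gene. The RefSeq promoter table for GRCh38.p14 matched these 2 of the 3 members, and each sequence below is the 250 bases before the annotated start, written 5′ to 3′ on the gene's own strand. FN1 lies on the minus strand (chr2:215436069-215436318) and VIM on the plus strand (chr10:17227991-17228240). Capitals mark the motifs found in either window, GGGCGG (Sp1) and TGACGTCA (the cyclic AMP response element), searched on both strands.
FN1: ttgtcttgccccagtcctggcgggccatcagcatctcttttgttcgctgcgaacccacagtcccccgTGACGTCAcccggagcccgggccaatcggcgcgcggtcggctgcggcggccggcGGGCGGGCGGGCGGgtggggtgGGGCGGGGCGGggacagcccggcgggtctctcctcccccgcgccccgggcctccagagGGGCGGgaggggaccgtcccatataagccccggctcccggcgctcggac
VIM: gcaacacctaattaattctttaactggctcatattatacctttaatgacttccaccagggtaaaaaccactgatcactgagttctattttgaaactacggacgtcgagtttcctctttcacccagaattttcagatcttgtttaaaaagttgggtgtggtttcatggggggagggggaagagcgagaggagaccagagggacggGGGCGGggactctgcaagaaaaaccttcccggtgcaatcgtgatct
The FN1 window held 6 matches to GGGCGG, some overlapping one another, and 1 to TGACGTCA. The VIM window held 1 match to GGGCGG and 0 to TGACGTCA. Among 35116 RefSeq promoter windows of the same length, 42.6% held GGGCGG and 1.65% held TGACGTCA. The E-box CACCTG, recognised by SNAI2 and related repressors, had 0 matches in both windows and occurred in 17.5% of all windows. The androgen receptor hexamer AGAACA and the AP-1 motif TGANTCA also had 0 matches in both windows, and occurred in 12.4% and 6.57% of all windows. CpG dinucleotides numbered 32 in the FN1 window and 8 in the VIM window. A match is only a run of letters, and the arrays hold no measurement of binding at these promoters.

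SNAI2 was about 1.9-fold higher in full serum than in charcoal serum, in the presence of either taxane. In full serum it measured 60.3 and 60.5 intensity units under cabazitaxel, 60.2 and 59.3 under docetaxel, and 50.0 and 56.0 under vehicle. In charcoal serum it measured 32.7 and 28.9 under cabazitaxel, 35.5 and 30.0 under docetaxel, and 29.6 and 28.0 under vehicle. Among the taxane arrays, the lowest full-serum value of 59.3 lay above the highest charcoal-serum value of 35.5. The vehicle arrays separated by serum as well, but the gene was chosen through that difference. Averaged over both taxanes, the log2 level was higher by 0.92 in full than in charcoal serum (1.9-fold, SE 0.0691, 95% CI 0.77 to 1.08, limma adjusted p = 5.48e-05). An exact two-sided permutation test of the 4 full-serum against the 4 charcoal-serum taxane arrays gave p = 0.0286, the smallest that this design allows. Adjusted over the 20 permutation tests run, the value was 0.191. Clusters 16702767 and 16712274 of VIM reached the same permutation p in the opposite direction. By limma with Benjamini-Hochberg adjustment, 119 of 11105 genes passed an adjusted p of 0.05 in this comparison (1.07%), 65 of them higher in full serum (0.585%) and 54 lower (0.486%). SNAI2 stood 6th from the top by log2 difference and 7th by p-value among the genes tested. With an assumed floor of 16 units subtracted before taking logs, its difference became 1.5 on the log2 scale.

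The serum difference of SNAI2 passed the test under each taxane alone. Under cabazitaxel it was 0.98 on the log2 scale (1.97-fold, 95% CI 0.76 to 1.19, limma adjusted p = 0.00111), in a comparison that called 44 genes (0.396%), 29 of them higher (0.261%). Under docetaxel it was 0.87 (1.83-fold, 95% CI 0.66 to 1.09, limma adjusted p = 0.00301), in a comparison that called 35 genes (0.315%), 18 of them higher (0.162%). The docetaxel call was lost without full-serum docetaxel replicate 1 (log2 difference 0.86, limma adjusted p = 0.0676) and without replicate 2 of that group (0.88, limma adjusted p = 0.0554), while the size of the difference stayed alike. In the vehicle arrays through which the gene had been chosen, the difference was 0.88 (1.84-fold). The serum difference under cabazitaxel minus that under docetaxel was 0.1 (95% CI -0.2 to 0.41, limma adjusted p = 1), and 0 genes passed that test (402 at an unadjusted p of 0.05).

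**Figure D1:**
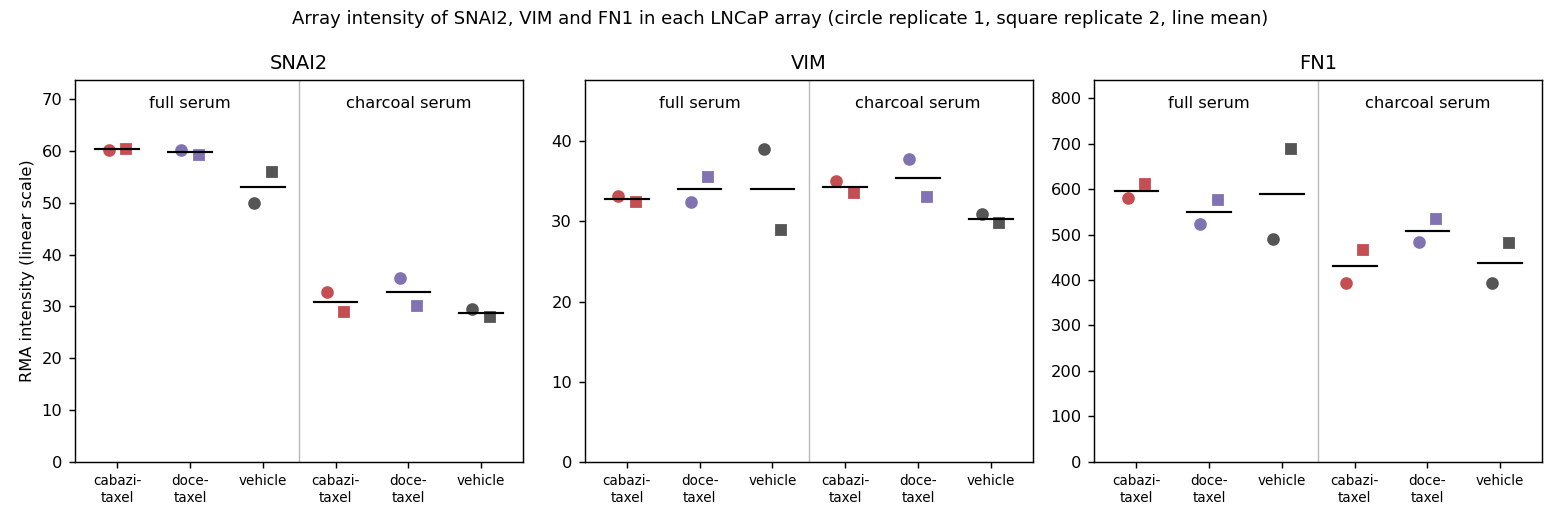
RMA intensity (linear scale) of SNAI2, VIM and FN1 in each of the 12 arrays, by serum and drug; points are single arrays (circle replicate 1, square replicate 2) and lines are group means (n = 2). SNAI2 separates the sera without overlap in the taxane arrays, and also in the vehicle arrays through which it was chosen. FN1 lies between 491 and 689 in full serum and 393 and 534 in charcoal serum, and VIM overlaps between sera.

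Ordered by mean intensity, SNAI2 was highest in full serum with cabazitaxel (60.4 ± 0.162, SD, n = 2) and with docetaxel (59.8 ± 0.635), followed by full serum with vehicle (53.0 ± 4.3). Charcoal serum with docetaxel (32.7 ± 3.87), with cabazitaxel (30.8 ± 2.7) and with vehicle (28.8 ± 1.14) followed below. Within charcoal serum each neighbouring pair differed by less than the SD of at least one of its groups. In full serum the taxane groups differed by 0.02 on the log2 scale (limma adjusted p = 1), and the vehicle arrays lay below both without passing the adjusted test. The step between the sera, with 53.0 above it and 32.7 below it, was the widest and exceeded the SD of every group. Its upper side is a vehicle group through which the gene was chosen, so the step is given as a description only.

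FN1 was higher in full serum under cabazitaxel in both arrays, but its serum difference passed the adjusted test under neither taxane. In full serum it measured 580 and 611 intensity units under cabazitaxel, 524 and 576 under docetaxel, and 491 and 689 under vehicle. In charcoal serum it measured 394 and 467 under cabazitaxel, 483 and 534 under docetaxel, and 393 and 481 under vehicle. The cabazitaxel arrays of the sera did not overlap, whereas those of docetaxel and the full sets of 6 arrays per serum did. Averaged over both taxanes the log2 difference was 0.29 (1.23-fold, 95% CI 0.06 to 0.53, unadjusted p = 0.0198, limma adjusted p = 0.348), and the exact permutation test over 4 against 4 arrays gave p = 0.0571. Under cabazitaxel it was 0.47 (1.39-fold, 95% CI 0.14 to 0.81, limma adjusted p = 0.45), and under docetaxel 0.12 (95% CI -0.22 to 0.45, limma adjusted p = 0.911). The difference between these values was 0.36 (95% CI -0.12 to 0.83, limma adjusted p = 1), so a difference between the taxanes in the serum response of FN1 was not shown. In the vehicle arrays the serum difference was 0.42, and leaving out 1 vehicle array at a time moved it between 0.18 (without full-serum replicate 2) and 0.66 (without full-serum replicate 1). The order of group means was full serum with cabazitaxel (595 ± 21.9, SD, n = 2), with vehicle (590 ± 140) and with docetaxel (550 ± 36.8), then charcoal serum with docetaxel (508 ± 36.1), with vehicle (437 ± 62.2) and with cabazitaxel (431 ± 52.0). The full-serum neighbours differed by less than the SD of the vehicle group, and charcoal serum with vehicle differed from charcoal serum with cabazitaxel by less than either SD. The step between full and charcoal serum with docetaxel slightly exceeded both SDs, though their arrays overlapped. Charcoal serum with docetaxel exceeded charcoal serum with vehicle by more than either SD, with no overlap and a limma adjusted p of 0.962.

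VIM, as read by cluster 16712272, differed little between sera. In full serum it measured 33.2 and 32.4 intensity units under cabazitaxel, 32.4 and 35.6 under docetaxel, and 39.1 and 28.9 under vehicle. In charcoal serum it measured 35.0 and 33.5 under cabazitaxel, 37.8 and 33.0 under docetaxel, and 30.9 and 29.8 under vehicle. The full-serum vehicle arrays held both the highest and the lowest value of all 12, so that the sera overlapped fully. The log2 difference, full minus charcoal serum, was -0.06 over both taxanes (95% CI -0.25 to 0.13, limma adjusted p = 0.901), -0.06 under cabazitaxel and -0.05 under docetaxel. In the vehicle arrays it was 0.15, and leaving out 1 vehicle array at a time moved that value between -0.07 and 0.37. By group mean the order was charcoal serum with docetaxel (35.4 ± 3.42, SD, n = 2) and with cabazitaxel (34.2 ± 1.05), full serum with docetaxel (34.0 ± 2.26), with vehicle (34.0 ± 7.19) and with cabazitaxel (32.8 ± 0.587), and charcoal serum with vehicle (30.3 ± 0.759). Only the last step, between full serum with cabazitaxel and charcoal serum with vehicle, was clear of the spread of both groups.

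The table held 3 clusters annotated to VIM, and they did not behave alike. Cluster 16702767 measured 29.7 and 30.1 in full serum under cabazitaxel, 30.1 and 28.0 under docetaxel, and 30.1 and 27.4 under vehicle. In charcoal serum it measured 32.5 and 32.7 under cabazitaxel, 34.0 and 31.3 under docetaxel, and 32.1 and 30.6 under vehicle. All full-serum arrays of this cluster lay below all charcoal-serum arrays, by a log2 difference of -0.15 over both taxanes (0.903-fold, 95% CI -0.27 to -0.03, unadjusted p = 0.0218). In the fit over all transcript clusters this did not pass the adjusted test (limma adjusted p = 0.449). Cluster 16712274 was lower in the taxane arrays of full serum, at 22.7 to 24.3, than in those of charcoal serum, at 25.5 to 34.2. Its log2 difference was -0.29 (95% CI -0.56 to -0.03, limma adjusted p = 0.529), and in the vehicle arrays it was -0.02. For clusters 16702767 and 16712274 alike, the exact permutation test over 4 against 4 taxane arrays gave p = 0.0286. Adjusted over the 20 permutation tests run, it was 0.191. These 2 clusters were examined after the values of the first had been seen.

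**Figure D2:**
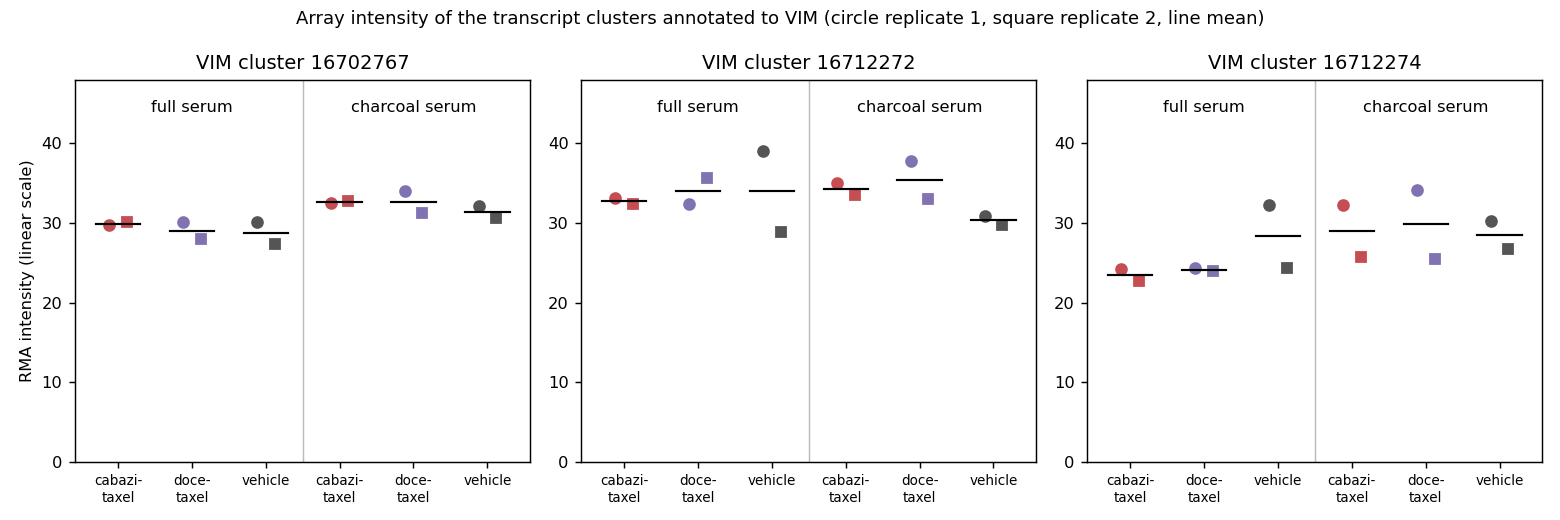
RMA intensity (linear scale) of the 3 transcript clusters annotated to VIM in each of the 12 arrays, by serum and drug; points are single arrays and lines are group means (n = 2). For cluster 16702767 the full-serum arrays, from 27.4 to 30.1, all lie below the charcoal-serum arrays, from 30.6 to 34.0, while cluster 16712272 overlaps between sera.

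The clusters of VIM also differed in their place in the array's numbering. Clusters with neighbouring numbers mostly belong to genes on one strand: of 11308 named clusters with a majority strand among their neighbours, 96.8% shared it. VIM lies on the plus strand in RefSeq. The 10 nearest named neighbours of cluster 16702767 were all plus-strand genes, whereas 8 of the 9 neighbours of clusters 16712272 and 16712274 were minus-strand genes. The 10 neighbours of FN1's cluster were all on the minus strand, the strand of FN1. RefSeq lists VIM-AS1, an antisense RNA gene, on the minus strand with one of its starts inside VIM. The strand that the probes read is not given in the sources used here, so whether clusters 16712272 and 16712274 read VIM itself was not settled. A pair of these clusters correlated at best moderately over the 12 arrays, with Pearson's r of 0.648 between 16702767 and 16712274, 0.539 between 16712272 and 16712274, and 0.327 between 16702767 and 16712272, as a description over arrays that share one normalisation.

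No member passed the adjusted test in any comparison of a taxane with vehicle. Averaged over both sera, limma called 0 genes for cabazitaxel against vehicle (0%, with 520 at an unadjusted p of 0.05), 0 for docetaxel against vehicle (0%, with 672) and 0 for cabazitaxel against docetaxel (0%, with 506). Both taxanes were set against the same vehicle arrays, and these arrays also belong to the serum contrast through which the genes were chosen. SNAI2 was 0.14 higher on the log2 scale under cabazitaxel (95% CI -0.01 to 0.29, limma adjusted p = 1) and 0.18 higher under docetaxel (95% CI 0.03 to 0.33, unadjusted p = 0.0254, limma adjusted p = 0.794). In full serum all 4 taxane arrays, at 59.3 to 60.5, lay above both vehicle arrays, at 50.0 and 56.0. The log2 differences there were 0.19 for cabazitaxel and 0.18 for docetaxel, and in charcoal serum 0.09 and 0.18, all with limma adjusted p of at least 0.962. FN1 differed from vehicle by 0.01 under cabazitaxel (95% CI -0.23 to 0.24, limma adjusted p = 1) and by 0.07 under docetaxel (95% CI -0.17 to 0.31, limma adjusted p = 0.94). VIM differed by 0.07 under cabazitaxel (95% CI -0.12 to 0.26, limma adjusted p = 1) and by 0.12 under docetaxel (95% CI -0.07 to 0.31, limma adjusted p = 0.863).

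Within one serum the small drug differences of FN1 and VIM did not run alike. The vehicle arrays used for them belong to the serum contrast through which the genes were chosen. That choice by itself tends to lower such differences in full serum and to raise them in charcoal serum. The values and tests here are therefore not free of it. In charcoal serum cluster 16712272 of VIM measured 33.0 to 37.8 in the taxane arrays, against 29.8 and 30.9 in the vehicle arrays, with log2 differences of 0.18 for cabazitaxel and 0.22 for docetaxel. The same differences were 0.06 and 0.06 for cluster 16702767 and 0.02 and 0.05 for cluster 16712274. In full serum those of cluster 16712272 were -0.04 and 0.02. FN1 under docetaxel stood 0.22 above vehicle in charcoal serum and -0.08 from it in full serum. Under cabazitaxel FN1 differed by -0.02 in charcoal and 0.03 in full serum. The limma adjusted p for these differences was 0.962 or more, and limma called 0 genes in any of these 4 comparisons, with 466 (cabazitaxel, charcoal serum), 446 (cabazitaxel, full serum), 567 (docetaxel, charcoal serum) and 578 (docetaxel, full serum) at an unadjusted p of 0.05. The methods' t-test also called 0 genes after Benjamini-Hochberg adjustment in each, with 431, 478, 492 and 515 at an unadjusted p of 0.05 in the same order.

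The taxanes were compared with each other at the one dose and time used, as 3 comparisons per gene. Over both sera the log2 difference, cabazitaxel minus docetaxel, was -0.04 for SNAI2 (95% CI -0.19 to 0.12, limma adjusted p = 0.974), -0.05 for VIM (95% CI -0.24 to 0.14, limma adjusted p = 0.974) and -0.06 for FN1 (95% CI -0.3 to 0.17, limma adjusted p = 0.97). Within a serum the widest difference was that of FN1 in charcoal serum, at -0.24 (95% CI -0.58 to 0.09, limma adjusted p = 0.888), where 394 and 467 under cabazitaxel lay below 483 and 534 under docetaxel. The comparison within charcoal serum called 0 genes (601 at an unadjusted p of 0.05) and that within full serum 0 (314). None of the differences between the compounds with methoxy and with hydroxyl groups passed the test in these genes. The intervals bound such a difference and do not show that the compounds act alike.

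**Figure D3:**
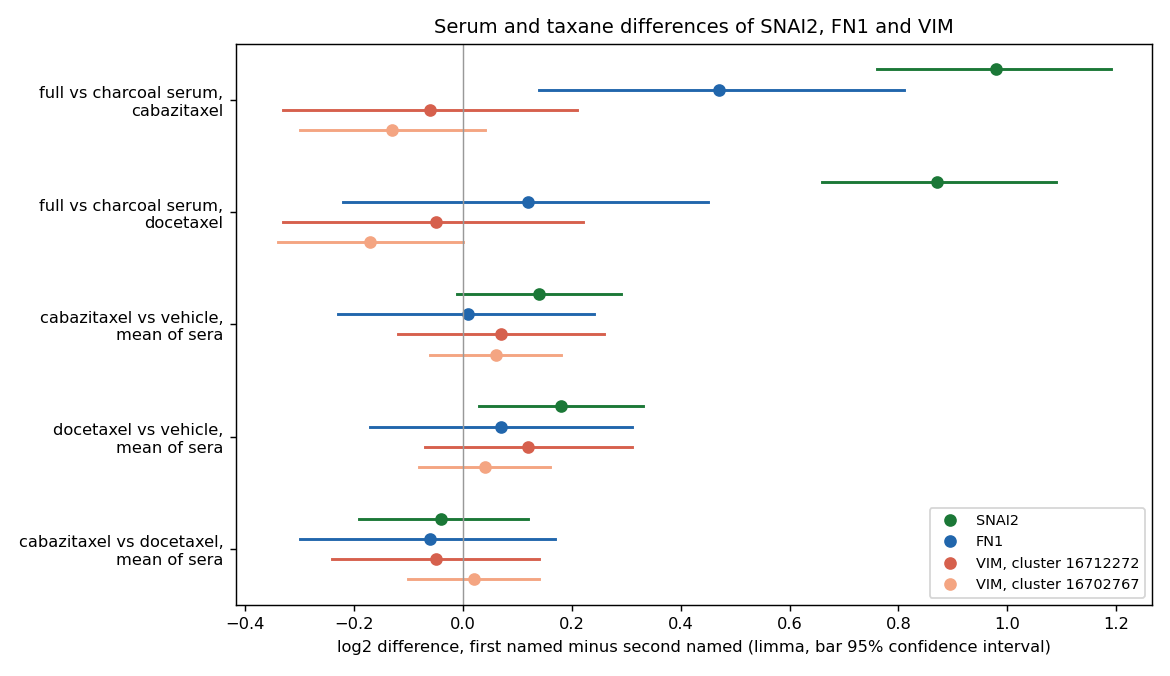
Log2 differences (points) of SNAI2, FN1 and VIM (2 clusters) with 95% confidence intervals (bars, limma, n = 2 arrays per group) for the serum comparison under each taxane and the drug comparisons averaged over sera. The serum differences of SNAI2 (0.98 and 0.87) have the highest points, the interval of FN1 under cabazitaxel (0.14 to 0.81) overlaps theirs, and the drug intervals cross 0 except that of SNAI2 under docetaxel (0.03 to 0.33).

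Of the other transition factors that were tested, SOX4 passed the test between sera over both taxanes, and in the opposite direction to SNAI2. Unlike SNAI2, SOX4 passed under neither taxane alone (limma adjusted p = 0.126 under cabazitaxel and 0.0581 under docetaxel). Of 17 transcription factors of epithelial-mesenchymal transition, 14 were named in the table and 12 passed the filter. In full against charcoal serum over both taxanes 4 of the 12 stood higher and 8 lower, with a median log2 difference of -0.0149 beside 0.00288 over all genes tested. SNAI2 was the 1 called higher, and the 1 called lower, in a comparison that called 1.07% of all genes tested, was SOX4, a SOX-family factor linked to the transition (log2 difference -0.45, SE 0.0631, limma adjusted p = 0.00519). SOX4 averaged 111 ± 4.98 and 107 ± 5.28 intensity units in full serum under cabazitaxel and docetaxel, against 148 ± 11.8 and 149 ± 12.9 in charcoal serum (SD, n = 2 each). Of 35 mesenchymal and matrix genes, 15 were named in the table and 9 passed the filter, with the members VIM and FN1 among the 9. Of these 9, limma called 0, a count near the 1.07% over all genes for a list of this size, with 5 higher, 4 lower and a median of 0.0323. Among them the actin-binding gene CALD1 stood at -0.13 (limma adjusted p = 0.429), the calcium-binding gene S100A4 at -0.11, the lysyl oxidase-like gene LOXL2 at 0.08 and the receptor tyrosine kinase gene AXL at -0.07.

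Epithelial genes, which SNAI2 is known to repress in other settings, split in direction. Of 34 listed genes 26 were named in the table and 25 passed the filter, 11 higher and 14 lower in full serum, with a median log2 difference of -0.0175. The test called 2 of the 25, against 1.07% of all genes tested. GRHL2, a transcription factor of epithelial differentiation, was called higher (0.37, SE 0.0512, limma adjusted p = 0.00471), with 156 ± 3.64 and 165 ± 1.84 intensity units in full serum under cabazitaxel and docetaxel against 118 ± 5.47 and 131 ± 0.0103 in charcoal serum (SD, n = 2 each). OCLN, which encodes the tight-junction protein occludin, was called lower (-0.45, SE 0.067, limma adjusted p = 0.00736), with 93.4 ± 1.98 and 106 ± 6.25 in full serum against 133 ± 1.07 and 139 ± 12.6 in charcoal serum. Both calls were lost with the assumed floor of 16 subtracted, at limma adjusted p of 0.0581 for OCLN and 0.0718 for GRHL2. GRHL2 was also called under cabazitaxel alone (0.41, limma adjusted p = 0.0442), but not under docetaxel alone (0.33, limma adjusted p = 0.118). OCLN was called under neither taxane alone (limma adjusted p of 0.0501 under cabazitaxel and 0.173 under docetaxel).

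Among genes whose products work with fibronectin, vimentin or SNAI2, 0 were called by limma in the same comparison, which for lists this short is near the 1.07% called over all genes. Of 15 fibronectin receptor genes, only 3 were named in the table, and no integrin gene was among them. All 3 passed the filter and stood lower, with a median of -0.0337: the heparan sulfate proteoglycan genes SDC4 (-0.49, limma adjusted p = 0.133), SDC1 (-0.03) and SDC2 (-0.02). Of 18 intermediate filament and linker genes, VIM itself included, 13 were named in the table and all 13 passed, 7 higher and 6 lower, with a median of 0.0418. The keratin genes KRT19 and KRT18 both stood at 0.18, and the lamin genes LMNB2 and LMNB1 at 0.13 and 0.11. Of 30 genes of TGF-beta and BMP signalling, a pathway known to induce SNAI2 and FN1, 16 were named and 13 passed, 8 higher and 5 lower, with a median of 0.0109. THBS1, which encodes thrombospondin-1, an activator of latent TGF-beta, stood at 0.2, and SMAD1 at -0.11. Of 17 corepressor and stability genes of SNAI2, 13 were named and all 13 passed, 9 higher and 4 lower, with a median of 0.0266, and 0 were called. Those with the largest changes were the LIM protein genes AJUBA (-0.13) and LIMD1 (0.1), the corepressor scaffold gene SIN3A (-0.1) and the histone methyltransferase gene EZH2 (0.07). None of these lists had a gene called in any comparison of a taxane with vehicle or of the taxanes with each other, comparisons in which limma called 0 genes in all.

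Some luminal genes known to be regulated by the androgen receptor rose in full serum, as SNAI2 did. Of 12 luminal markers 7 were named in the table, and all 7 passed the filter. Over both taxanes 5 stood higher and 2 lower, with a median log2 difference of 0.176. The 3 called higher, against 0.585% of all genes tested, were TARP (log2 difference 1.99, limma adjusted p = 1.49e-07), KLK2 (1.4, limma adjusted p = 0.000105) and KLK3 (0.89, limma adjusted p = 0.00471). Their part in the serum difference of SNAI2 was not tested. TARP, which prostate cells transcribe from within the T-cell receptor gamma region, was also the gene whose pattern over the 12 arrays was most like that of SNAI2, with Pearson's r of 0.985. CENPN, a centromere protein gene (r = 0.982), and HOMER2, a scaffold protein gene (r = 0.982), came next, and 47 genes had r above 0.9. Within each serum the likeness was weaker, with r of 0.718 in full and 0.672 in charcoal serum for TARP, 0.807 and 0.417 for CENPN, and 0.692 and 0.639 for HOMER2 (6 arrays each). Spearman's rho in the same order was 0.657 and 0.771 for TARP, 0.0286 and 0.6 for CENPN, and 0.371 and 0.714 for HOMER2. LRRN1, a leucine-rich repeat membrane protein gene, had the lowest r of all, -0.945, with 0.185 in full and -0.493 in charcoal serum. These coefficients describe arrays that share serum groups and one normalisation, and the first come from selection among 11105 genes.

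**Figure D4:**
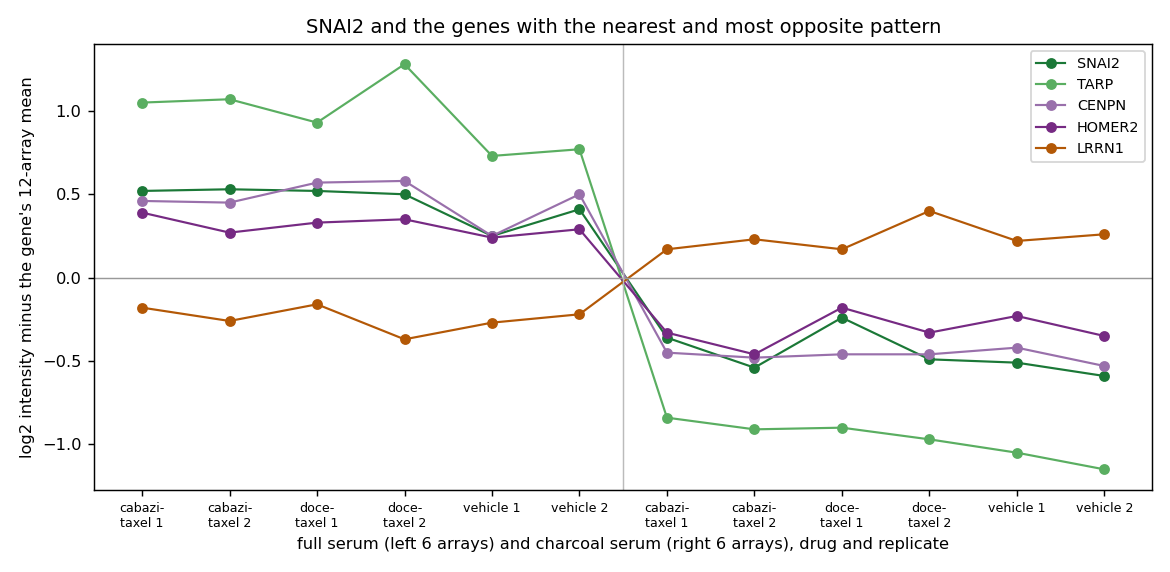
Log2 intensity minus the gene's mean over the 12 arrays, for SNAI2, the genes most like it (TARP, CENPN and HOMER2) and the gene least like it (LRRN1); each point is 1 array, full serum left and charcoal serum right. SNAI2, TARP, CENPN and HOMER2 are high in full serum and low in charcoal serum, and LRRN1 runs the other way.

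The genes most like FN1 and VIM were picked by r over all arrays, among all genes tested. Their r within each serum is largely fixed by that selection and is no separate check. Spearman's rho for these genes ranged within a serum from 0.486 (MIR4798) to 1 (AUTS2), both in charcoal serum. The patterns most like those of FN1 and VIM had r of 0.791 or more within each serum. For FN1 they were those of MPHOSPH9, a centriolar protein gene (r = 0.973, with 0.952 in full and 0.947 in charcoal serum), CSPP1, a spindle and cilium protein gene (r = 0.943), and ACACA, which encodes acetyl-CoA carboxylase (r = 0.938), and 13 genes had r above 0.9. The lowest was SNHG8, a small nucleolar RNA host gene (r = -0.939). For VIM, read by cluster 16712272, the first was that of AUTS2 (r = 0.89, with 0.941 in full and 0.966 in charcoal serum). PGD, an enzyme gene of the pentose phosphate pathway (r = 0.86), and the microRNA gene MIR4798 (r = 0.854) came next. For this cluster 0 genes had r above 0.9. The lowest was PPWD1, a peptidylprolyl isomerase gene (r = -0.898). Whether this cluster reads VIM itself was not settled. AUTS2, at 21.5 to 25.7 units, and MIR4798, at 20.1 to 26.4, lay near the table's median of 22.31. PGD was brighter, at 60.2 to 74.7. None of the genes named here for FN1 was called between sera, MPHOSPH9 standing at 0.36 (limma adjusted p = 0.191). Among the members themselves, SNAI2 and FN1 had r of 0.379 in full and -0.102 in charcoal serum, SNAI2 and VIM -0.513 and 0.906, and VIM and FN1 -0.833 and 0.077 (6 arrays each). For SNAI2 and FN1, Spearman's rho was 0.371 in full and 0.2 in charcoal serum.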

How the data were processed

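LNCaP arrays were hybridised in duplicate for each of 6 serum and drug groups. The deposited values are linear intensities per transcript cluster. The authors used RMA to normalise them, as the submitters' processing notes record without a version. The series' design text adds a filter on low-expressing genes whose threshold is not given in the sources used here, nor is the array's genome build. The table held 44629 clusters, 15835 with 1 gene symbol and 28794 unnamed, and 0 sample columns went unused. Array medians ranged from 22.19 to 22.43. Precision is limited by the number of arrays.

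Here log2 was taken and the brightest cluster of each gene kept. Genes above the table's median in at least 2 arrays were tested with limma 3.58.1 (R 4.3.3), 6 groups in one fit, adjusted by Benjamini-Hochberg over 11105 genes at 0.05, for 13 comparisons. limma was tested on simulated data. Single values used exact permutation tests (scipy 1.17.1). Fold changes are of RMA intensities, whose floor compresses them.

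The members and gene lists were chosen with earlier results of these data known. Named genes are the members, the called genes of each list or else up to 4 with the largest absolute change, and per member the 3 most and 1 least correlated genes, with KLK2 and KLK3. Alternatives were another normalisation, centring, filter, floor, cluster choice, prior, group set and test, the replicate number as a block, and leaving out each array.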

Additional observations from a re-analysis of the deposited data

Results flagged for a closer look

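For VIM (cluster 16712272), the cabazitaxel arrays lay on opposite sides of the vehicle mean in the sera. In full serum both cabazitaxel arrays lay below the vehicle mean, by -0.02 and -0.05 on the log2 scale (mean -0.04), and in charcoal serum both lay above it, by 0.21 and 0.14 (mean 0.18). The full-serum cabazitaxel arrays nevertheless lay between the vehicle arrays, at 28.9 and 39.1. Cluster 16702767 stood 0.06 above vehicle in both sera, and cluster 16712274 at -0.26 in full and 0.02 in charcoal serum. For FN1 the docetaxel arrays lay on opposite sides, with -0.15 and -0.01 in full serum (mean -0.08) and 0.15 and 0.3 in charcoal serum (mean 0.22). Those in full serum again lay between the vehicle arrays, at 491 and 689. These differences between sera were not tested, because the vehicle means belong to the serum contrast through which the genes were chosen. That choice by itself favours values below vehicle in full serum and above it in charcoal serum.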

How the results depend on the processing

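SNAI2 was called between sera over both taxanes in 17 of 17 alternatives (log2 difference 0.86 to 1.5), under cabazitaxel in 13 of 13 (0.89 to 1.6) and under docetaxel in 11 of 13 (0.75 to 1.41, and 0.75 to 0.99 when 1 array was left out). FN1 was called in 0 of its alternatives over both taxanes (limma adjusted p 0.0602 to 0.651). Gene counts moved more, and the causes were not tested. Over both taxanes 119 calls became 62 with the floor of 16 subtracted and 208 over all clusters. The 44 calls under cabazitaxel became 25 without the filter, 10 with the floor and 7 with the groups alone. The 35 under docetaxel became 22, 9 and 12 in the same order, and 59 over all clusters. Leaving out 1 array gave 62 to 120, 9 to 19 and 7 to 21 calls, lowest without charcoal docetaxel replicate 2, full-serum cabazitaxel replicate 2 and either full-serum docetaxel array. All clusters gave 1 call for cabazitaxel against docetaxel in charcoal serum and 1 for the difference of serum differences. With the replicate number as a block, calls became 190 over both taxanes, 47 under cabazitaxel and 62 under docetaxel. FN1 then had adjusted p = 0.0602 over both taxanes and 0.0806 under cabazitaxel, and SDC4 (0.00549) and MPHOSPH9 (0.0263) became called. The replicate-1 deviations of 15 group pairs correlated by -0.0486 to 0.326, over 0.1 in 10, so the numbers are not shown to pair samples.

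Small differences changed sign. With cluster 16702767 for VIM, cabazitaxel minus docetaxel became 0.02 over both sera and 0.04 in full serum, cabazitaxel minus vehicle 0.06 in full serum, and the difference of serum differences 0.04. That last value was 0.01 with the mean over clusters and 0 with median centring. With cluster 16712274, cabazitaxel minus vehicle became -0.12 and docetaxel minus vehicle -0.08 over both sera, and docetaxel minus vehicle -0.22 in full serum, where the mean over clusters gave -0.06. Leaving out 1 array, cabazitaxel minus docetaxel ranged in charcoal serum from -0.21 to 0.03 (SNAI2) and -0.14 to 0.05 (VIM), in full serum from -0.12 to 0.01 (VIM), and over both from -0.1 to 0.02 (SNAI2), -0.1 to 0 (VIM) and -0.13 to 0 (FN1). Cabazitaxel minus vehicle ranged in charcoal serum from -0.16 to 0.13 (FN1) and 0 to 0.18 (SNAI2), in full serum from -0.21 to 0.28 (FN1) and -0.25 to 0.18 (VIM), and over both from -0.11 to 0.13 (FN1) and -0.04 to 0.18 (VIM). Docetaxel minus vehicle ranged in full serum from -0.32 to 0.16 (FN1) and -0.2 to 0.23 (VIM), and over both from -0.05 to 0.19 (FN1). The serum difference under docetaxel ranged from -0.15 to 0.04 (VIM), and the difference of serum differences from -0.02 to 0.22 (SNAI2) and -0.11 to 0.09 (VIM). Serum differences over both taxanes ranged from -0.14 to 0.04 (MIR4798), -0.03 to 0.03 (PGD), -0.03 to 0.07 (PPWD1), -0.12 to 0.05 (SDC1) and -0.08 to 0.04 (SDC2). With 2 arrays a group, differences of this size cannot be told from the spread between replicates.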

Other observations

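FN1 was higher in replicate 2 than in replicate 1 in 6 of 6 groups, as were 392 of the 11105 genes tested (3.53%), and 477 genes were higher in replicate 1 in all groups (4.3%). VIM (cluster 16712272) was higher in replicate 2 in 1 of 6 groups and SNAI2 in 2 of 6. What the replicate numbers mark is not given in the sources used here.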
